A study of Mus musculus with 6 samples.

Results

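The 6 genes described here, Ly6a, Ly6c1, Ly6c2, Ly6d, Ly6e and Psca, were taken as a named list of Ly6 family genes and matched by Ensembl gene identifier to the rows of 6 single-cell UMI count tables from mouse bladder mucosa. Of these 6 members, 5 were among the 14347 genes that were listed in all tables and used in the tests, and Ly6c2 was listed in every table but that of acute replicate 1. The mice were wild-type C57BL/6 animals of 8 weeks, and each condition had 2 libraries, with several mice of both sexes pooled in a condition. Healthy mice were normal adults, acutely injured mice received 1 injection of cyclophosphamide (CPP) at 150 mg/kg, and chronically injured mice received 4 injections at 75 mg/kg. Injured bladders were taken 48 h after the last injection, on day 2 for acute and on day 11 for chronic injury. CPP is a cytostatic drug whose metabolite in urine damages the urothelium, the epithelium that lines the bladder. The cells were processed in batches that the sources used here do not assign to libraries, so batch and condition cannot be told apart.

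Ly6 proteins are small cysteine-rich proteins with a three-finger fold, and most of them, including these members, are held at the cell surface by a glycosylphosphatidylinositol (GPI) anchor. Ly6a, known as Sca-1, is used to sort mouse haematopoietic stem cells and stromal progenitors, and interferons raise it in many cell types. Ly6c1 and Ly6c2 encode the nearly identical Ly6C antigens, of which Ly6c1 is known from endothelium and Ly6c2 from inflammatory monocytes and memory T cells. Ly6d is known from stratified epithelia and early B lymphocytes, Ly6e from the entry and restriction of viruses, and Psca, prostate stem cell antigen, from the urothelium and the gastric epithelium. The urothelium has a basal layer on the basement membrane, intermediate cells above it, and superficial umbrella cells that carry uroplakin plaques and face the urine.

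The members lie within 397.1 kb of chromosome 15 (GRCm38/mm10, GENCODE vM21), a span that holds 30 annotated genes, 19 of them protein-coding. In order along the chromosome, Psca (ENSMUSG00000022598) lies at chr15:74714839-74717069 on the plus strand and Ly6d (ENSMUSG00000034634) at chr15:74762056-74763620 on the minus strand. Ly6e (ENSMUSG00000022587) follows at chr15:74955051-74959905 on the plus strand, and Ly6a (ENSMUSG00000075602) at chr15:74994877-74998031 on the minus strand. Ly6c1 (ENSMUSG00000079018) at chr15:75044018-75048830 and Ly6c2 (ENSMUSG00000022584) at chr15:75108158-75111970 are both on the minus strand. No annotated gene overlaps a member. Coding sequences of the members span 369 to 408 bases in 3 or 4 exons. Ly6a shares 81.84% of coding bases with Ly6c1 and 81.59% with Ly6c2, whereas the other pairs apart from Ly6c1 with Ly6c2 share 47.36% to 52.45%.

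Ly6c1 and Ly6c2 differ at 9 of 393 coding positions (97.71% identity), so the assignment of reads to either gene rests on few bases. They are shown because these genes had different cell distributions in the data. Coding bases 6 to 65 of each are given below, with the bases that differ in capitals.
Ly6c1, coding sequence: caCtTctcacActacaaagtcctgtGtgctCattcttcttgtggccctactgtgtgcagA
Ly6c2, coding sequence: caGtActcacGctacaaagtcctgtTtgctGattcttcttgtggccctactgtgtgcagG
The libraries were 3' libraries, in which reads start near the transcript end. A 30-base stretch of the 3' UTR, 56 bases before the end of the Ly6c1 transcript and 49 bases before that of Ly6c2, holds 2 differences, again in capitals.
Ly6c1, 3' UTR: AtgcctgtcaatgacccctgTtgagtccaa
Ly6c2, 3' UTR: GtgcctgtcaatgacccctgCtgagtccaa
Of the 303 windows of 98 bases in the last 400 bases of each transcript, 27 of Ly6c1 and 27 of Ly6c2 also occurred in another member, and none of the windows of Psca, Ly6d, Ly6e or Ly6a did. A read from most positions could thus be told apart, while counts of Ly6c1 and Ly6c2 from the shared windows remain uncertain.

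Cells of the 6 libraries were clustered together, with the members and other genes of the Ly6 and uPAR family kept out of the clustering features. Clusters were named from marker lists that do not hold these genes, and a name is short for cells like that type ("fibroblast" stands for fibroblast-like). Basal cells were those whose basal marker score exceeded their luminal score, and intermediate cells were the other non-cycling urothelial cells outside the superficial sub-cluster, so both are ranges of a score. There were 1634 cells within 0.1 of that boundary. Superficial cells were 1 sub-cluster, chosen by its mean superficial marker score. None of its top 10 genes, led by Fam25c and Acer2, was on the superficial marker list used here. The study's text does name Acer2 as preferred by superficial cells. Of these top genes 1 was the mural marker Rgs5, and of the lists for broad cell types the mesenchymal one matched the sub-cluster best. The name thus rests on the superficial score, and all superficial values are those of this sub-cluster. Its uroplakin sum (Upk1b, Upk2, Upk3a) was 226% to 312% of that of intermediate cells. These genes are on the superficial marker list that chose the sub-cluster, so a high sum was fixed by that choice and adds nothing to the name. Its stromal sum (Dcn, Col1a2, Col3a1) was 0.704% to 3.19% of that of fibroblasts. The NK and T class was led by haemoglobin genes beside Nkg7, Ccl5 and Gzma. In total 48401 cells were kept, between 5008 and 11147 per library, with 54604109 to 111985678 UMIs per library. Between 36 and 229 cell barcodes were shared by a pair of libraries. Before doublet calls were removed, acute replicate 2 gave 1112 of the 1279 cells of one myofibroblast sub-cluster and 1139 of the 1513 cells of one fibroblast sub-cluster. Libraries thus differed in the sub-clusters that made up these classes. Endothelial cells numbered 12 to 260 and macrophages 37 to 132 per library, and a class entered with at least 20 cells.

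Each member had its own distribution over the 11 classes. Levels are given as CPM, the UMIs of a gene among every 1000000 UMIs of a class in 1 library. Ly6d was highest in the urothelium, and Psca in superficial, cycling and intermediate urothelial cells. Ly6a was highest in stromal and endothelial cells, Ly6c1 in endothelial cells, Ly6c2 in NK and T cells and macrophages, and Ly6e in endothelial and immune cells. When the 7 classes present in every library were put in the order of mean log2(CPM + 1), 13 of the 30 pairs of neighbouring classes differed (edgeR quasi-likelihood test with the library as a block, Benjamini-Hochberg adjusted over all genes). Over all genes, 39.8% of the tests in the same pairs were called (13.6% to 70.7% by pair). Each pair held neighbours in the order of a member's own levels, so the members' number and this share are unlike quantities. Among neighbours, 4 of 6 pairs differed for Ly6a, 4 of 6 for Ly6e, 2 of 6 for Ly6c1, 2 of 6 for Psca and 1 of 6 for Ly6d.

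**Figure D1:**
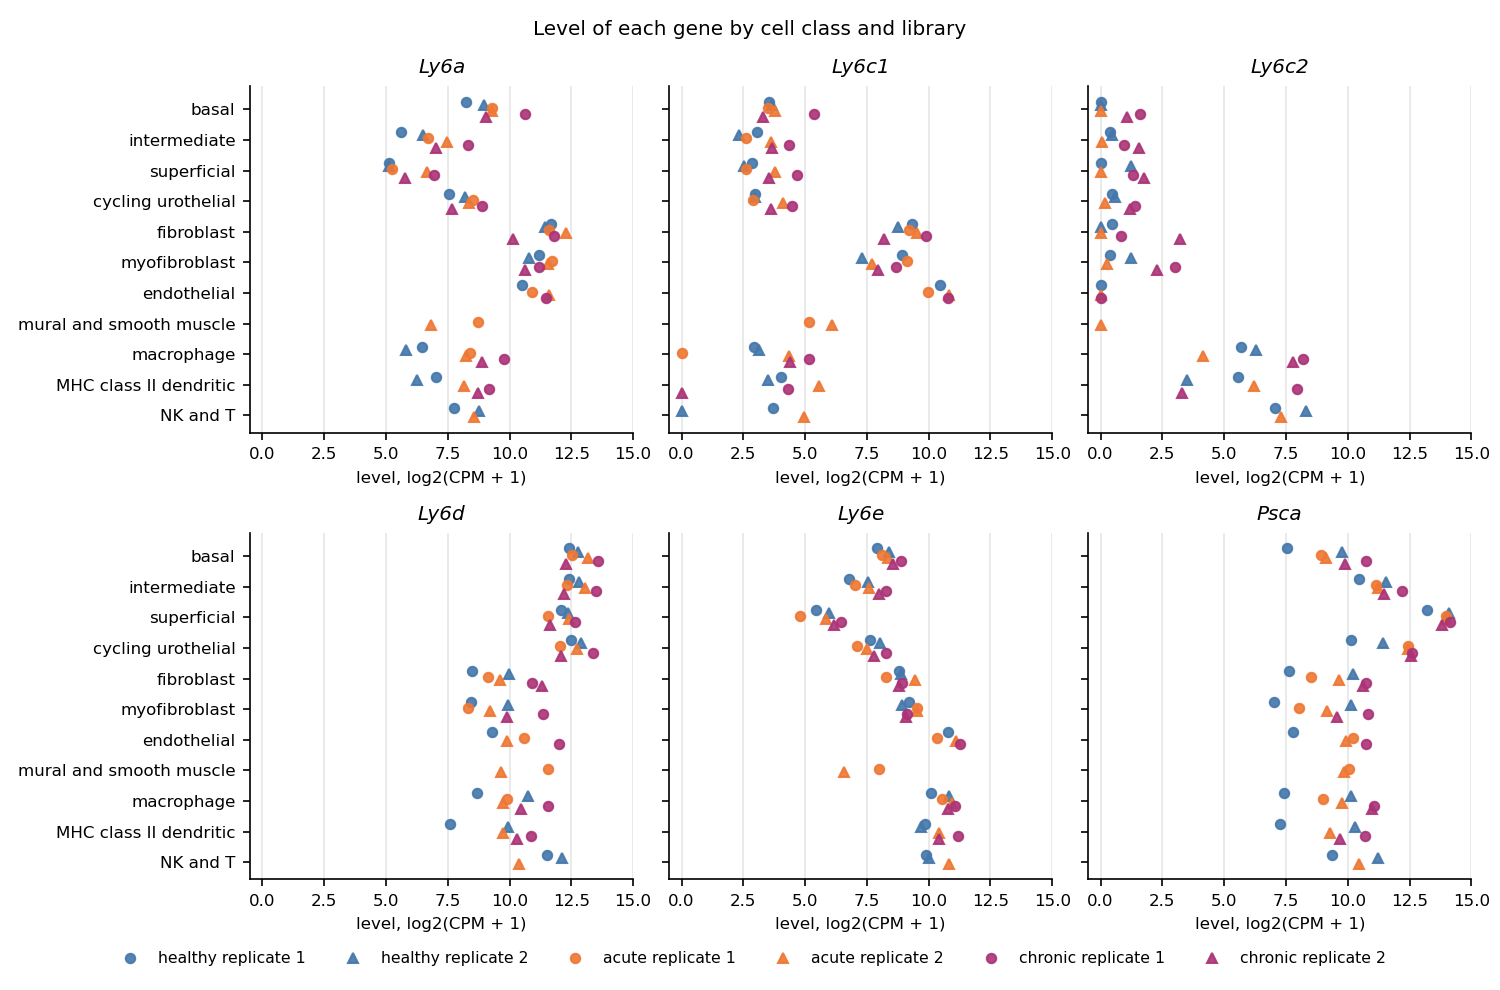
Level of each gene, as log2(CPM + 1) on the horizontal axis, in the 11 cell classes, with 1 point per library (colour for condition, shape for replicate). Only classes with at least 20 cells in a library are shown, and Ly6c2 has no point for acute replicate 1. Ly6d sits highest in the urothelial rows, and Psca in the superficial, cycling and intermediate rows, with basal Psca among the non-urothelial rows. Ly6a sits highest in the fibroblast, myofibroblast and endothelial rows.

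Psca rose from basal to superficial cells. Values for the libraries follow the order healthy 1, healthy 2, acute 1, acute 2, chronic 1, chronic 2 here and below. In basal cells Psca was at 187, 869, 489, 563, 1710 and 937 CPM. In intermediate cells it was at 1402, 2963, 2231, 2421, 4728 and 2810 CPM. In superficial cells it was at 9476, 17480, 16205, 16203, 18225 and 14485 CPM. The order of the layers was the same in 6 of 6 libraries, and the superficial values did not overlap those of the other layers. Psca was 4.19-fold lower in basal than in intermediate cells (log2 difference −2.07 ± 0.11 SE, adjusted p = 5.74e-13 in edgeR) and 6.14-fold higher in superficial than in intermediate cells (2.62 ± 0.11, adjusted p = 3.32e-13). These layer contrasts called 43.6% and 54.3% of all genes, with 4 of 5 tested members called in each. In basal cells Psca was 13.3%, 29.3%, 21.9%, 23.3%, 36.2% and 33.3% of the intermediate level. In fibroblasts, where Psca was not read as expression (below), it was 13.9%, 40.0%, 16.3%, 33.2%, 35.7% and 56.1%. These ranges overlapped, so the basal fold describes counts only. Within the superficial sub-cluster the cells of healthy replicate 1 stood apart: its median cell had 52.3 Psca UMIs per 10000, against 134 to 170 in the other libraries, and 1 cell held 2944 Psca UMIs. The top 10% of its cells carried 45.4% of its Psca UMIs, against 23.7% to 30.7% elsewhere.

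Ly6d, in contrast, was even across the lower layers and lower at the surface. Basal cells had 5474, 7070, 5932, 9267, 12144 and 5014 CPM of Ly6d, and intermediate cells 5457, 7177, 5055, 8415, 11571 and 4710 CPM. The difference between these layers was 0.00 ± 0.04 on the log2 scale, with a 95% interval of −0.07 to 0.08 (adjusted p = 0.953, edgeR), much smaller than the spread between libraries. Superficial cells had 4302, 5292, 3026, 5443, 6438 and 3162 CPM, below intermediate cells in 6 of 6 libraries (1.43-fold lower, −0.52 ± 0.08, adjusted p = 1.66e-05). After cells were thinned to 2000 UMIs, at least 98.3% of cells had a Ly6d UMI in every urothelial layer and library, a share too near 100% to show a difference. In the non-urothelial classes the mean share was 60.1% to 73.3%.

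Ly6a and Ly6e fell from the basal layer to the surface. In basal cells Ly6a was at 299, 497, 617, 633, 1572 and 526 CPM. In intermediate cells it was at 47.2, 90.5, 102, 174, 316 and 128 CPM. In superficial cells it was at 33.9, 34.1, 36.4, 101, 121 and 53.8 CPM. Basal cells were above intermediate cells in 6 of 6 libraries, by 4.70-fold (2.23 ± 0.08, adjusted p = 6.80e-16, edgeR), and superficial cells were below them in 6 of 6, by 2.11-fold (−1.08 ± 0.11, adjusted p = 4.74e-08). Superficial Ly6a was 1.03%, 1.25%, 1.17%, 2.05%, 3.43% and 4.82% of the fibroblast level. The stromal sum there was 1.06%, 1.35%, 0.704%, 1.92%, 1.54% and 3.19%. Superficial Ly6a was thus near the stromal share in both healthy libraries and acute 2 and above it in acute 1 and both chronic libraries. Ly6e was at 242, 338, 276, 331, 475 and 380 CPM in basal cells, at 108, 186, 128, 192, 308 and 250 CPM in intermediate cells, and at 42.5, 60.8, 27.0, 56.3, 87.8 and 71.5 CPM in superficial cells. It was 1.72-fold higher in basal (0.78 ± 0.06, adjusted p = 1.06e-09) and 3.27-fold lower in superficial than in intermediate cells (−1.71 ± 0.09, adjusted p = 7.82e-12), each in 6 of 6 libraries. Without the library as a block, Ly6e between basal and intermediate cells (adjusted p = 0.0759) and Ly6a and Ly6d between superficial and intermediate cells (adjusted p = 0.0710 and 0.118) were no longer called.

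Ly6c1 was low in the urothelium, at 3.99 to 40.6 CPM over layers and libraries. In intermediate cells this was 1.15%, 0.925%, 0.86%, 1.51%, 2.05% and 4.06% of the fibroblast level, where the stromal sum was at 1.09%, 0.892%, 0.683%, 1.97%, 1.34% and 2.78%, so it was about as low as stromal RNA in these cells. Its difference between basal and intermediate cells (0.56 ± 0.18, adjusted p = 0.0162, edgeR) was present in 5 of 6 libraries. It depended on single libraries and on the fit: adjusted p was 0.0556 without acute replicate 1, 0.0563 without chronic replicate 1, 0.130 without healthy replicate 2, 0.139 with layers assigned by sub-cluster and 0.680 without the library as a block. Superficial and intermediate cells did not differ beyond the spread (0.16, 95% interval −0.07 to 0.39).

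**Figure D2:**
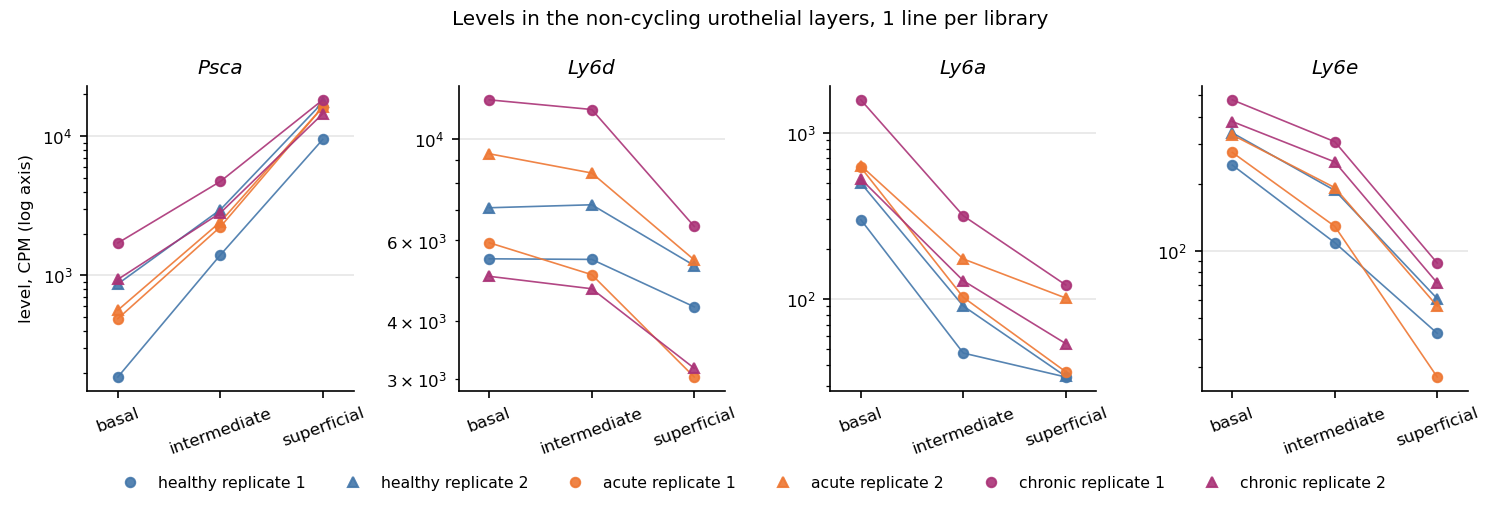
Level in CPM, on log axes that do not start at 0, of Psca, Ly6d, Ly6a and Ly6e in basal, intermediate and superficial cells, with 1 line per library. Psca climbs in every library to 9476 CPM or more at the surface, while Ly6a and Ly6e decline and Ly6d drops only between intermediate and superficial cells.

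Cycling urothelial cells, which mix layers, stood between basal and intermediate cells for Ly6a, at 184, 292, 366, 328, 471 and 200 CPM. Psca in cycling cells was at 1112, 2762, 5525, 5546, 6280 and 6039 CPM, which put all injured libraries above both healthy ones. Between the 15 urothelial sub-clusters, Ly6a was highest in 6 of 6 libraries in sub-cluster 12, a cycling group led by Ube2c and Top2a with a mean of 847 CPM, followed by sub-cluster 1, led by Klf4, with 704 CPM. Psca was highest in the superficial sub-cluster in 6 of 6 libraries, with a mean of 15233 CPM, and the next highest means were 9226 and 5950 CPM in sub-clusters 13 and 14. Sub-cluster 14 (554 cells, 5.78% cycling) had Fam25c, Acer2 and Rgs5 among its top genes, as the superficial sub-cluster did. Sub-cluster 3 (3348 cells) had the highest superficial score below the threshold. Non-cycling cells of both were counted as basal or intermediate, so these classes hold superficial-like cells. Ly6d was highest in sub-cluster 3, led by Txnip, Defb1 and Upk3a (mean 9567 CPM), or in sub-cluster 9, led by Txnip beside haemoglobin genes (mean 9372 CPM), in 3 libraries each.

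Within intermediate cells, the detection of Psca and Ly6e was compared between cells with and without a Ly6a UMI. Among cells thinned to 2000 UMIs, a Psca UMI was found in 61.2%, 87.6%, 79.2%, 82.5%, 98.9% and 93.2% of cells with a Ly6a UMI. The share in cells without one was 73.3%, 94.5%, 90.6%, 89.8%, 99.6% and 96.9%. The Psca share was lower beside Ly6a in 6 of 6 libraries. Ly6e went the other way: it was found in 23.4%, 40.4%, 36.0%, 37.8%, 51.5% and 48.4% of cells with Ly6a and in 18.8%, 28.3%, 20.4%, 29.2%, 39.2% and 36.9% of those without, higher in 6 of 6. These shares are descriptions of cells in the same libraries and were not tested.

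Psca and Ly6d UMIs were found in every other class as well, and they moved with those of uroplakins, which mark the urothelium among bladder cells. Over 32 values from the 7 non-urothelial classes, the uroplakin sum ranged from 5.19% to 57.5% of the level in intermediate cells of the same library (median 23.2%). Ly6d ranged from 3.46% to 61.2% (median 15.02%) and Psca from 9.20% to 79.6% (median 36.0%). The Ly6d share was below the uroplakin share in 21 of 32 values, and the Psca share above it in 31 of 32. Levels of Psca and Ly6d outside the urothelium were not read as expression by these cells. The part of free RNA and doublets in them was not tested.

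**Figure D3:**
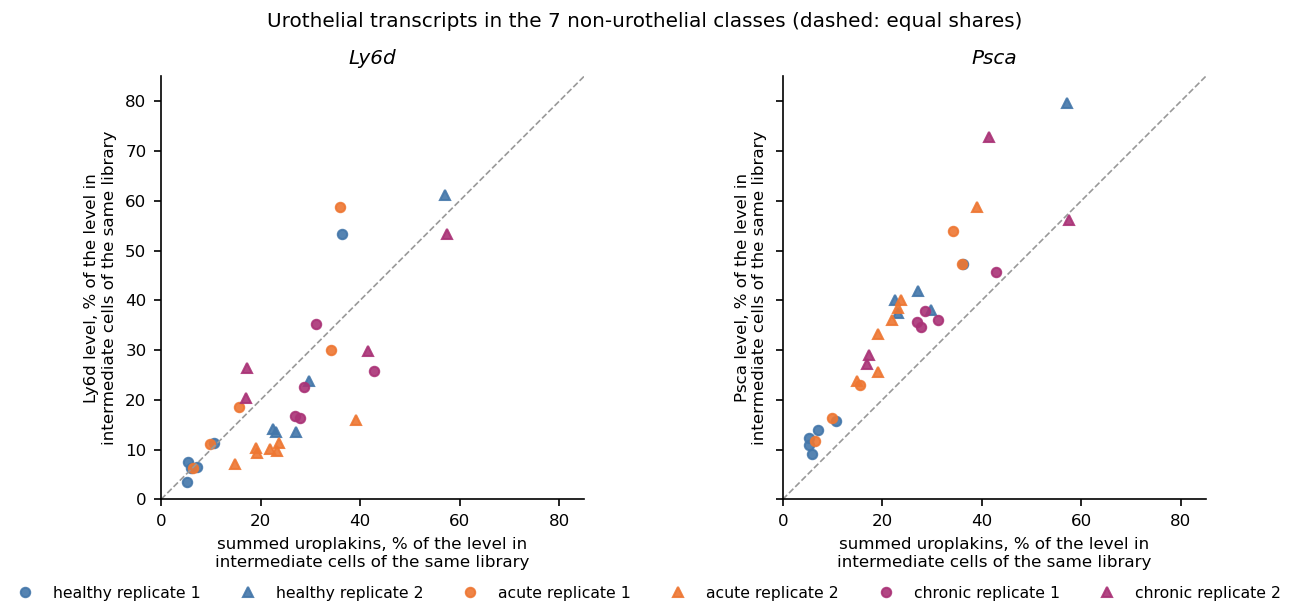
Ly6d (left) and Psca (right) in 7 non-urothelial classes against the summed uroplakins Upk1b, Upk2 and Upk3a, each as a percentage of the level in intermediate cells of the same library, with 1 point per class and library and a dashed line of equal shares. Psca lies above the line in 31 of 32 points and Ly6d below it in 21.

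Ly6a was highest in stromal and endothelial cells. Fibroblasts had 3278, 2730, 3109, 4934, 3531 and 1115 CPM (mean 3116 ± 1237 SD, n = 6), with the lowest value in chronic replicate 2, which held 65 fibroblasts. Their uroplakin sum was 57.5% of the intermediate level, and the stromal sum of myofibroblasts in that library was 398% of theirs. All shares of a fibroblast level in chronic replicate 2, above and below, use these cells. Myofibroblasts had 2312, 1757, 3361, 3045, 2305 and 1568 CPM (mean 2391 ± 702, n = 6), and both classes overlapped throughout. A Ly6a UMI was found in 93.5% of fibroblasts and 94.4% of myofibroblasts thinned to 2000 UMIs, as means over libraries, with 2068 of 5257 fibroblasts and 195 of 3989 myofibroblasts left out for having fewer UMIs. Without thinning these shares were 96.6% and 97.7%. Fibroblasts and myofibroblasts did not differ beyond the spread (0.26 ± 0.18, 95% interval −0.08 to 0.61, adjusted p = 0.358 in edgeR). Without chronic replicate 2 the difference was called (0.45, adjusted p = 0.0374). Endothelial cells had 1433, 1896, 3058 and 2812 CPM in the libraries healthy 1, acute 1, acute 2 and chronic 1, the only ones with enough of these cells (mean 2300 ± 764, n = 4). In a fit of all classes, endothelial cells were above basal urothelial cells (1.55 ± 0.34, adjusted p = 0.000178) and below fibroblasts (−0.89 ± 0.34, adjusted p = 0.0409), where 36.6% and 31.8% of all genes were called, and the difference from myofibroblasts was not called (adjusted p = 0.238, background 34.2%).

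Between stromal sub-clusters, Ly6a and Ly6c1 both had their highest means in fibroblast sub-clusters 1 and 7. Ly6a averaged 4495 CPM in the first, led by Clec3b and Lum, and 3936 CPM in the other, led by Stmn2, Tppp3 and Pcolce2, with Mfap5 and Pi16 among its top genes. Ly6c1 averaged 917 and 811 CPM there, against 279 to 516 CPM in the other sub-clusters of fibroblasts and myofibroblasts. These means cover different libraries: 5 for sub-clusters 1 and 7, without chronic replicate 2, and 3 to 6 for the others. Within libraries, sub-cluster 1 was highest in 4 of 6 for Ly6a and 3 of 6 for Ly6c1. Sub-cluster 7 was highest in 1 and 2, and myofibroblast sub-cluster 2 in 1 for each gene. Fibroblast libraries had 634, 432, 590, 746, 946 and 290 CPM of Ly6c1 and myofibroblast libraries 486, 158, 562, 209, 406 and 248 CPM, with fibroblasts higher in 6 of 6. Ly6c1 was the 1 member called between these classes (0.83 ± 0.23, adjusted p = 0.0176, edgeR), in a comparison that called 18.6% of all genes. The call was lost without acute replicate 2 (adjusted p = 0.0894), without chronic replicate 1 (0.0618), without healthy replicate 2 (0.0682) and without the library as a block (0.217).

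Endothelial cells had the most Ly6c1, with 1417, 991, 1788 and 1768 CPM in healthy 1, acute 1, acute 2 and chronic 1. Their level was 1.82-fold that of fibroblasts (0.86 ± 0.27, adjusted p = 0.00979, edgeR on all classes in 1 fit) and exceeded that of intermediate cells (6.88 ± 0.31, adjusted p = 3.14e-26, with 42.0% of all genes called), where Ly6c1 was about as low as stromal RNA, so no fold is given. The 9 endothelial markers, Pecam1 and Cdh5 among them, summed to 7547, 4198, 6268 and 4463 CPM in this class and to at most 20.025 CPM in fibroblasts. Ly6c2, the near-identical copy, had no UMI in endothelial cells of healthy 1, acute 2 or chronic 1, which allows levels up to 16.2, 5.54 and 50.5 CPM. Ly6c1 and Ly6c2 counts thus separated fully in these cells at this depth.

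Ly6c2 was found in lymphocytes and myeloid cells. NK and T cells of healthy 1, healthy 2 and acute 2 had 134, 315 and 155 CPM. Macrophages had 49.8, 77.7, 16.4, 288 and 221 CPM and MHC class II dendritic cells 46.0, 10.3, 72.8, 244 and 8.84 CPM in the 5 libraries whose tables list the gene. In other classes it was between 0 and 8.17 CPM. The table of acute replicate 1 lists no gene seen in fewer than 6 cells, so its absence there was not counted as 0. In the 5 libraries, macrophages of both chronic replicates were above both healthy ones, as for 1284 of 5360 genes there, and Ly6c2 in chronic against healthy macrophages was 1.78 ± 0.46 higher on the log2 scale (adjusted p = 0.559, edgeR), which did not pass.

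Ly6e was broad, with its highest levels in endothelial and immune cells. Endothelial cells had 1741, 1311, 2215 and 2492 CPM in healthy 1, acute 1, acute 2 and chronic 1. Macrophages had 1092, 1821, 1473, 1989, 2163 and 1745 CPM. The endothelial mean (1940 CPM) was above that of macrophages (1714 CPM), while the fitted difference, with TMM factors, was below 0 and not called (−0.34 ± 0.22, 95% interval −0.77 to 0.10). Nor was the difference called against MHC class II dendritic cells (0.20, −0.25 to 0.66), with 22.6% and 25.1% of all genes called in these pairs. Below them, macrophages exceeded myofibroblasts (1.63 ± 0.19, adjusted p = 1.38e-09, with 42.6% of all genes called), which had 589, 481, 743, 729, 560 and 546 CPM. Fibroblasts, at 449, 470, 311, 692, 483 and 445 CPM, were below myofibroblasts in 6 of 6 libraries, but the difference did not pass (−0.43 ± 0.17, adjusted p = 0.0908). The Ly6e range over classes was from 57.6 CPM in superficial cells to 1940 CPM in endothelial cells, as means over libraries.

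The study asked what CPP injury changes, and the 3 urothelial layers, fibroblasts, myofibroblasts, macrophages and endothelial cells were compared between conditions. They had 2 libraries per condition, except endothelial cells with 1 healthy, 2 acute and 1 chronic library. NK and T cells, with 1 acute library, are given apart below, where Ly6d was called. The lone endothelial libraries are assumed to vary like the acute ones. None of the members was called in these classes in acute or in chronic injury: 0 of 15 tests in urothelial layers and 0 of 19 in fibroblasts, myofibroblasts, macrophages and endothelial cells for either comparison (edgeR, adjusted p). The background was as low: of all genes, 0.0% were called in every layer and in macrophages for both comparisons. In acute injury 0.00895% were called in fibroblasts, 0.0405% in myofibroblasts and 0.105% in endothelial cells, and in chronic injury 0.00895%, 0.0% and 0.084%. At an unadjusted p under 0.05 there were 0 and 2 of these tests for acute and 6 and 6 for chronic injury, all higher in injury. Outside the urothelium 5 of the 6 chronic tests and 1 of the 2 acute ones were of Psca or Ly6d, whose levels in these classes were not read as expression. In both chronic libraries, against both healthy ones, the uroplakin share of the intermediate level was 26.9% and 57.5% against 7.14% and 22.5% in fibroblasts and 42.9% and 41.5% against 5.37% and 29.8% in macrophages. In myofibroblasts it overlapped, at 28.7% and 17.0% against 5.92% and 23.2%. Of all genes, 2.32% to 3.97% reached an unadjusted p under 0.05 in the layers for acute and 4.32% to 4.84% for chronic injury, and at most 3.08% and 7.06% in the other classes. With DESeq2, 1 test passed, Ly6a in chronic macrophages. Acute and chronic injury were compared with the same healthy libraries.

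Ly6a in macrophages was at 86.3, 54.4, 337, 301, 869 and 473 CPM, so the injured libraries were all above both healthy ones, and the chronic above the acute ones. Against healthy cells the log2 difference was 2.09 ± 0.46 in acute injury (unadjusted p = 0.00141, adjusted p = 0.9995, edgeR) and 3.02 ± 0.47 in chronic injury (unadjusted p = 0.000115, adjusted p = 0.142). DESeq2 called the chronic difference (3.07, adjusted p = 0.000301), and so did edgeR without healthy replicate 1 (adjusted p = 0.0195) or without healthy replicate 2 (0.0382). With no filter on low counts, edgeR called both the acute (2.04, adjusted p = 0.0335) and the chronic difference (2.98, adjusted p = 9.65e-06). With doublet calls kept, the fitted Ly6a differences in macrophages fell to 1.13 in acute and 1.81 in chronic injury (adjusted p = 0.9999 and 0.656). Other measures of these cells stand beside it. The stromal sum in macrophages was 0.994%, 2.14%, 0.778%, 3.71%, 3.83% and 5.04% of that in fibroblasts, while Ly6a was 2.63%, 1.99%, 10.8%, 6.11%, 24.6% and 42.4% of the fibroblast level. The summed interferon-stimulated genes in macrophages were at 10688, 6880, 16868, 16568, 14466 and 14048 CPM, higher in every injured library as Ly6a was. The 6 monocyte markers listed in all tables summed to 717, 1223, 1298, 1090, 1795 and 1187 CPM. The stromal sum was above both healthy libraries in acute 2 and both chronic libraries, but not in acute 1. The monocyte sums overlapped between healthy and injured libraries. They hold F13a1, which was also among the top genes of macrophage sub-cluster 4 described below, so they do not measure monocytes alone. The part of stromal RNA, of interferon and of newly arrived monocytes in the Ly6a levels was not tested.

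The 2 macrophage sub-clusters differed in these genes. Sub-cluster 3, led by Slpi, Cxcl2, Ccl3, Cx3cr1 and Cd14, had 127 CPM of Ly6a in healthy 1, 374 in acute 2, 1621 in chronic 1 and 623 in chronic 2. Sub-cluster 4, led by Ccl8, Folr2 and Fcna, had 9.53, 60.05, 85.7, 189 and 196 CPM in healthy 1, healthy 2, acute 1, acute 2 and chronic 1. Ly6c2 followed the same division, with 76.4, 27.0, 597 and 298 CPM in sub-cluster 3 and 0, 0, 0 and 10.9 CPM in sub-cluster 4, where acute 1 has no Ly6c2 row. Ly6e did not, with 748 to 2279 CPM in sub-cluster 3 and 1543 to 2133 CPM in sub-cluster 4. Healthy 2, acute 1 and chronic 2 held cells of both sub-clusters, but only the larger part had enough cells to be given here. Before doublet calls were removed, healthy 2 had 20 cells in sub-cluster 3 and 71 in sub-cluster 4. Acute 1 had 11 and 30, and chronic 2 had 45 and 15. Both parts were summed in the macrophage class, so the comparison of conditions above also compared different mixtures of these sub-clusters.

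**Figure D4:**
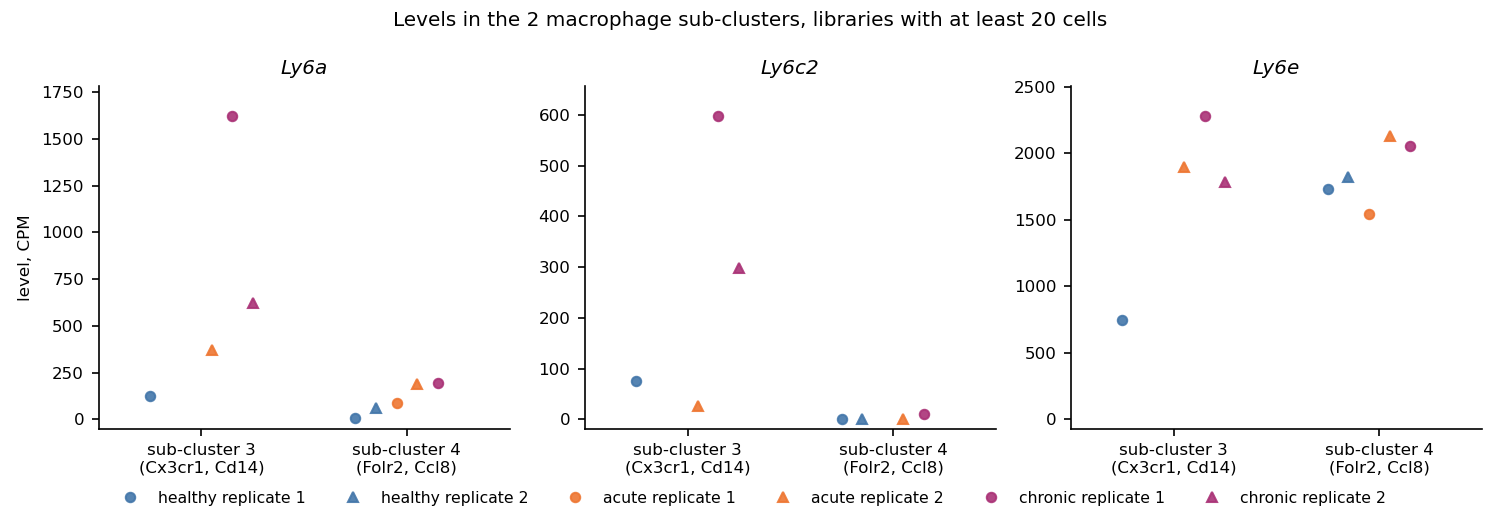
Level in CPM of Ly6a, Ly6c2 and Ly6e in macrophage sub-clusters 3 and 4, with 1 point per library with at least 20 cells in the sub-cluster. Ly6a and Ly6c2 points of sub-cluster 3 reach 1621 and 597 CPM in chronic replicate 1, while in sub-cluster 4 none exceeds 196 and 10.9 CPM.

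In MHC class II dendritic cells Ly6a was at 128, 75.2, 281, 581 and 415 CPM (healthy 1 and 2, acute 2, chronic 1 and 2), a chronic difference of 2.16 ± 0.47 (unadjusted p = 0.000373, adjusted p = 0.656, edgeR), with 0.0% of all genes called. In basal, intermediate and superficial cells each of the 4 injured libraries had more Ly6a than both healthy libraries, which was true of 4.32%, 3.53% and 6.53% of all genes with a mean of at least 20 CPM in that layer, and of 7.39% in macrophages. Chronic means were 2.64-fold, 3.23-fold and 2.57-fold the healthy means in the 3 layers, and acute means 1.57-fold, 2.00-fold and 2.02-fold. The fitted chronic differences were 1.43 ± 0.50, 1.73 ± 0.55 and 1.32 ± 0.52, and chronic replicate 1 was the highest library in each layer. Without it they were 0.37, 0.88 and 0.65. The fitted acute differences were 0.69, 1.05 and 1.04. Without acute replicate 2 the acute difference was 0.53 in intermediate and 0.03 in superficial cells, and over all libraries left out it ran from 0.34 to 1.14, 0.53 to 1.60 and 0.03 to 1.63 in the 3 layers. In the fits of all libraries, with none left out, adjusted p was at least 0.9665 for each of these differences. The summed interferon-stimulated genes were at 1011, 571, 1209, 1203, 1196 and 1143 CPM in basal cells and at 1080, 593, 1206, 1215, 1166 and 1344 CPM in intermediate cells, also higher in every injured library. The stromal sum, as a share of that in fibroblasts, was 0.661% to 2.74% in basal cells, against 9.13%, 18.2%, 19.9%, 12.8%, 44.5% and 47.2% for Ly6a, and 1.09%, 0.892%, 0.683%, 1.97%, 1.34% and 2.78% in intermediate cells, against 1.44%, 3.32%, 3.29%, 3.52%, 8.94% and 11.5% for Ly6a. It was above both healthy libraries in acute 2 and both chronic libraries of these layers. In superficial cells Ly6a was near the stromal share in both healthy libraries and acute 2, as given above. The part of interferon and of stromal RNA in the Ly6a levels was not tested. Fibroblasts and myofibroblasts showed no such order for chronic injury: chronic means were 0.773-fold and 0.952-fold the healthy means, with overlapping values. The fibroblast ratio rests on chronic replicate 2 (1115 CPM), whose few fibroblasts are described above. Chronic replicate 1 (3531 CPM) was above both healthy libraries (3278 and 2730 CPM). With 1 library left out, the fitted chronic difference in fibroblasts ran from −1.59 to 0.21. In acute injury, both myofibroblast libraries (3361 and 3045 CPM) were above the healthy ones, as for 14.6% of all genes there. Interferon-stimulated genes had median log2 differences of 1.26 in acute and 0.81 in chronic fibroblasts. In myofibroblasts these medians were 0.885 and 0.63. Ly6a overlapped healthy values in fibroblasts in both injuries and in myofibroblasts in chronic injury, so the 2 measures did not go together there.

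**Figure D5:**
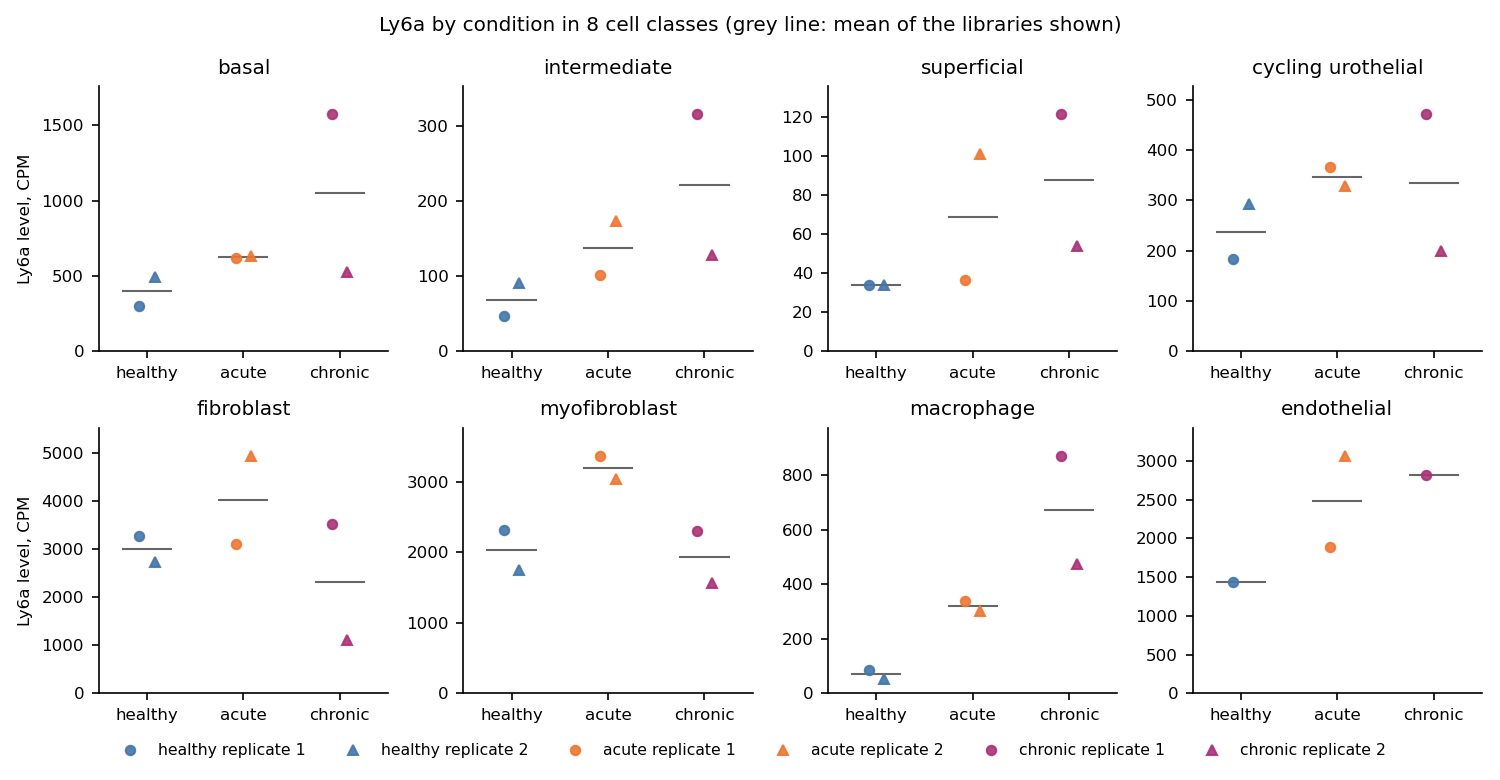
Ly6a level in CPM in healthy, acute and chronic libraries in 8 classes, with 1 point per library and a grey line at the mean of the libraries shown. Injured points lie above both healthy points in basal, intermediate, superficial and macrophage panels, while fibroblast points of the conditions overlap.

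Psca and Ly6d in injured endothelial cells are given beside the uroplakins. In endothelial cells Psca was at 222, 1202, 969 and 1701 CPM (healthy 1, acute 1, acute 2, chronic 1), a chronic difference of 3.0 ± 0.57 (unadjusted p = 0.000447, adjusted p = 0.236, edgeR), from 1 chronic and 1 healthy library with the spread of the 2 acute ones. The uroplakin sum in those cells was 10.7%, 34.2%, 23.7% and 31.2% of that in intermediate cells. Ly6d there was at 616, 1522, 952 and 4075 CPM (chronic difference 2.79 ± 0.58, adjusted p = 0.278). In clusters made without integration, both genes were called in chronic endothelial cells (adjusted p = 0.0292 for both), again with 1 library in each of these groups. In NK and T cells, where acute 2 alone could be set against the healthy libraries, the log2 difference of Ly6d was −1.41 (adjusted p = 0.0353, edgeR, with 6.02% of all genes called). It compares 1 acute library, assumed to vary like the healthy ones, and was not read as a change. Ly6d there was 53.4%, 61.2% and 16.0% of the intermediate level in healthy 1, healthy 2 and acute 2, where uroplakins were at 36.3%, 57.1% and 39.1%.

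In cycling urothelial cells, Psca was 2.86-fold the healthy mean in acute and 3.18-fold in chronic injury, with log2 differences of 1.48 ± 0.41 (unadjusted p = 0.00679, adjusted p = 0.243) and 1.70 ± 0.41 (unadjusted p = 0.00334, adjusted p = 0.249) in edgeR, where 0.0169% and 0.0% of all genes were called. All 4 injured libraries lay above both healthy ones, as did 10.1% of all genes in these cells. Of injured cycling cells, 26.8%, 29.0%, 34.5% and 28.4% had over 50 Psca UMIs per 10000, against 1.47% and 8.94% of healthy ones, and the medians were 8.93, 14.1, 35.8 and 24.01 per 10000 in injured and 3.01 and 11.5 in healthy libraries. Medians of healthy and acute libraries overlapped, while those of both chronic libraries were above both healthy ones. Cycling sub-cluster 13, high in Psca, reached 20 cells in the 4 injured libraries only. The cycling class was set by a score threshold and held 545, 1029, 1883, 1268, 2094 and 683 cells, many of them from other sub-clusters. Before doublet calls were removed, cycling sub-cluster 12 had 92, 41, 620, 220, 107 and 68 cells. Sub-cluster 13 had 12, 10, 449, 200, 156 and 115, so the make-up of the class differed between libraries. The cycling class holds cells of all layers, and its uroplakin sum was 71.5% and 77.6% of that of intermediate cells in the healthy libraries against 146%, 128%, 111% and 161% in the injured ones. The part of the layer mixture and of this make-up in the Psca difference was not tested. In the non-cycling layers the Psca ratios of chronic to healthy means were 2.51, 1.73 and 1.21 from basal to superficial, and those of acute to healthy means 0.998, 1.07 and 1.20. These ratios rest on single libraries: the fitted chronic difference in basal cells, 1.34, was 0.60 without healthy replicate 1, 0.78 without chronic replicate 1 and 2.89 without healthy replicate 2. In intermediate and superficial cells the fitted chronic differences ran from 0.34 to 1.49 and from −0.17 to 0.79 when 1 library was left out, and the acute ones in the 3 layers from −0.71 to 1.57, −0.33 to 0.77 and −0.15 to 0.81. Where Psca was not read as expression, chronic ratios were 2.36 in fibroblasts, 2.06 in myofibroblasts, 3.23 in macrophages and 1.76 in MHC class II dendritic cells.

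Whether injury changed a member differently between layers was tested with an interaction term within libraries. None of the 10 acute tests and none of the 10 chronic tests passed (edgeR, lowest adjusted p = 0.742 and 0.889), with 1 and 3 at an unadjusted p under 0.05 and none called by DESeq2. Of all genes, 2.91% and 6.36% reached that unadjusted p for the acute change in basal and in superficial against intermediate cells, and 3.86% and 5.59% for the chronic change. The background was 0.0% and 0.0253% of genes called for the acute change in basal and in superficial against intermediate cells, and 0.00843% for both chronic changes. The lowest unadjusted p of the chronic tests was that of Psca between basal and intermediate cells (0.73 ± 0.29, unadjusted p = 0.0202). It was called without healthy replicate 2 (1.38, adjusted p = 0.00412) and was 0.22 without healthy replicate 1. At the levels themselves, healthy replicate 1 had the lowest Psca in each layer. Basal Psca overlapped fibroblast Psca as a share of the intermediate level, as given above.

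Over the 11 classes, the genes with the pattern most like that of each member were found by Pearson's correlation of log2(CPM + 1). CPM was first averaged over libraries, and 9535 genes with a mean of at least 20 CPM in some class were compared. For Ly6a these were Dhrs7 (r = 0.947), a dehydrogenase, Eid1 (0.929) and Cdc42ep2 (0.910), for Ly6c1 Ramp2 (0.987), part of the adrenomedullin receptor, Sdpr (0.986) and Akap2 (0.978), and for Ly6e Ogfr (0.957), the interleukin-3 receptor chain Il3ra (0.950) and St6galnac4 (0.945). Ly6d was most like the claudin Cldn7 (0.991), Gsta4 (0.991) and the forkhead factor Foxq1 (0.989), and Psca most like Fam25c (0.987), Krt20 (0.984) and Upk2 (0.979), the last a uroplakin and Krt20 the keratin of superficial cells. Both Krt20 and Upk2 were on the luminal and superficial marker lists that set the layers. Between members, Ly6a correlated most with Ly6c1 (0.867) and least with Psca (−0.703). The classes share libraries and free RNA, and no p is given.

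Of 41 other genes of the Ly6 and uPAR family looked for, 17 were listed in all tables and 8 reached a mean of 20 CPM in some class. They were Gpihbp1, which carries lipoprotein lipase across capillary endothelium (385 CPM in endothelial cells), Lypd3 (300 CPM in intermediate cells), Plaur, the urokinase receptor (194 CPM in basal cells), Ly6k (106 CPM), Lynx1 (51.6 CPM in fibroblasts), Cd59a, an inhibitor of complement lysis (49.1 CPM in endothelial cells), Ly6g5b (37.8 CPM in NK and T cells) and Ly6g6e (30.7 CPM in superficial cells). Between basal and intermediate cells 2 of 13 tested were higher and 7 lower, where 43.6% of all genes were called, with a median log2 difference of −0.38 against 0.01 for all genes. Plaur went with Ly6a and Ly6e, higher in basal cells (1.08 ± 0.06) and lower in superficial cells (−1.55 ± 0.10). Ly6g6e went with Psca, lower in basal (−1.89 ± 0.17) and higher in superficial cells (1.03 ± 0.10). In superficial cells 2 of 13 were higher and 5 lower, Lypd3 among the lower ones (−1.56 ± 0.11), where 54.3% of all genes were called, and the median was −0.25 against −0.02.

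The GPI anchor that holds these proteins is made by a pathway of which 29 genes were looked for. Between basal and intermediate cells 1 of 27 tested was higher and 8 were lower, where 43.6% of all genes were called, among them Pigh (−0.88 ± 0.08), a subunit of the enzyme of the first step, and Pgap1 (−0.47 ± 0.07), which removes an acyl chain from the finished anchor. Between superficial and intermediate cells 8 were higher and 4 lower, where 54.3% of all genes were called, and here Pigh was higher (1.45 ± 0.09) while Piga, the catalytic subunit of the same enzyme, was lower (−1.81 ± 0.14). Their medians were −0.08 and 0.11. Fibroblasts were above myofibroblasts for 2 of 21, with 18.6% of all genes called.

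Interferon-stimulated genes were counted because Ly6a and Ly6e belong to those that interferons raise. Of 50 looked for, 41 were tested between superficial and intermediate cells, where 18 were higher, Psmb8 of the immunoproteasome among them (0.67 ± 0.09), and 6 lower, with the antiviral Ifitm3 (−0.74 ± 0.09) going the way of Ly6a and Ly6e. Between basal and intermediate cells 2 of 40 were higher, Ifitm3 among them (0.37 ± 0.06), and 16 lower. Both numbers were near the shares of all genes called, 54.3% and 43.6%. With injury none of this list was called in any of 7 classes in either comparison. Its median log2 difference in acute injury was above that of all genes in 7 of 7 classes, from 0.27 in endothelial cells to 1.26 in fibroblasts, and in chronic injury in 6 of 7, from −0.51 in endothelial cells to 0.91 in intermediate cells. Medians of all genes were between −0.06 and 0.04. Of the genes of the list, Ifitm3 differed by 0.91 ± 0.37 and Bst2, which tethers budding viruses, by 1.87 ± 0.45 in acute macrophages, where Ly6a differed by 2.09 ± 0.46, and none of these passed (adjusted p = 0.9995 for each, edgeR).

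Promoter sequences of the members were at hand for Ly6c1 and Ly6c2, with 2 annotated starts each. Each start had a 300-base window (RefSeq, GRCm38.p6). The first 250 bases of a window of each gene, up to the start, were aligned. The best local alignment had 231 columns, of which 73.59% were identical. A local alignment leaves out unlike ends. The coding identity of 97.71% covered all 393 positions, so these identities are unlike measures. The 250 bases before one start of each gene are shown because these neighbours were detected in different cell classes. They lie at chr15:75048838-75049087 and chr15:75111972-75112221 on the minus strand, and capitals mark the runs of at least 12 bases that both hold, 47 bases in each.
Ly6c1, promoter: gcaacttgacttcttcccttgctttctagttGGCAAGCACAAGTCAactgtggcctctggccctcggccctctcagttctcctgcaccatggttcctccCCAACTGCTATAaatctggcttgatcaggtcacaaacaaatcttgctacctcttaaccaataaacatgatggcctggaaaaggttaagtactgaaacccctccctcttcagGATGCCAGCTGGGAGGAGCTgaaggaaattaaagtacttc
Ly6c2, promoter: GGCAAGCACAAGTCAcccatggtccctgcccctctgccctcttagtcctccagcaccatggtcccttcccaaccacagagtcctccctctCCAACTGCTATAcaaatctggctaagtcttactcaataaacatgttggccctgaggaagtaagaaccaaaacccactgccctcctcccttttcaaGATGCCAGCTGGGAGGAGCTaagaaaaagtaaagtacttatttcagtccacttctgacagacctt
A spaced core of the interferon-stimulated response element was in 3.443% of 32851 promoter windows and in none of these 4 on either strand, and TTCNNNGAA, the gamma-activated site, in 8.298% and in none. TATAAA was in 13.616% of windows and in 1 of the 4, a Ly6c1 window. No match says only that these letters are not in these windows.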

How the data were processed

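The authors dissociated the mucosal layer, made droplet libraries with the 10x Genomics Chromium system and processed the reads with Cell Ranger on mm10, per the labels. The annotation was not given in the sources used here. The deposited tables hold UMI counts per gene and cell. The table of acute replicate 2 lists a newer gene set, and the incomplete last line of the table of healthy replicate 1 was dropped. No column of per-sample values of another series was present (0 columns). Members were matched by Ensembl identifier. The members and gene lists were chosen with earlier results of these data known.

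A cell had to show more than 500 genes, and less than 10% of its UMIs could be mitochondrial. Scrublet scores were used at a rate of 0.8% per 1000 cells, and called doublets (4.28% to 11.1% per library) were removed. Its automatic threshold, which marked 603 cells in acute replicate 2 and at most 7 in any other library, was not used. Libraries were normalised with SCTransform (sctransform 0.4.2) and integrated by RPCA in Seurat 5.3.0. Cells were clustered in scanpy 1.11.5 (Leiden resolution 0.8, 20 neighbours, 30 components). Sub-clusters with over 25% doublet calls, or led by genes of another class, were left out by rules set after seeing the data. Cycling cells scored over 2 MADs above the median for S or G2/M genes.

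Counts were summed per library and class with at least 20 cells. These sums were tested in edgeR 4.0.16 with its quasi-likelihood test, TMM factors and filterByExpr, with adjustment by Benjamini-Hochberg over all genes tested and a threshold of 0.05. Comparisons between classes had the library as a block, and comparisons between conditions had condition only. The fit of all classes and the Ly6c2 fit on 5 libraries were added after seeing the data. An error is a standard error unless SD is stated, and a 95% interval is 1.96 standard errors to either side. The libraries of a condition, given as biological replicates in the study's text, were the replicates. Which mice went into which library is not given in the sources used here. Limits for a count of 0 are 3 counts of the total and cover counting error only.

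The test code was also run on simulated counts with known changes, and no result here rests on that run. DESeq2 1.42.0, other normalisations, filters, cell filters, doublets kept, no integration and each library left out were run as alternatives. Named genes were the members, other family genes with a mean of at least 20 CPM in some class, the 3 genes most correlated with each member, the 4 most abundant interferon-stimulated genes and the 2 called GPI anchor genes with the largest change in each comparison. Leading genes of clusters were named after their values were seen.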

Additional observations from a re-analysis of the deposited data

Results flagged for a closer look

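Ly6e differed from healthy cells in opposite directions in 2 classes after acute injury. In myofibroblasts the acute mean was 1.38 times the healthy mean, and both acute libraries (743 and 729 CPM) were above both healthy ones (589 and 481 CPM). In cycling urothelial cells the acute mean was 0.697 times the healthy mean, and both acute libraries (138 and 183 CPM) were below both healthy ones (198 and 263 CPM). The uroplakin sum of cycling cells, as a share of that of intermediate cells, was 71.5% and 77.6% in the healthy and 146% and 128% in the acute libraries, and Ly6e was lower in superficial than in intermediate cells. The cycling class also differed between libraries in its cells from cycling sub-clusters, as given above. The part of the layer mixture and of this make-up in the Ly6e difference was not tested. Such an order was seen for 14.6% of all genes in acute myofibroblasts (higher) and 20.8% in acute cycling cells (lower). Neither difference passed the test in its class, and the difference between the classes was not tested. With 2 libraries per condition, no library was tested for its distance from the rest of its group.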

How the results depend on the processing

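Of the tests of single members under alternatives, 22 lost and 24 gained a call, and none reversed. Without the library as a block (no replicate block), 2 members were called between basal and intermediate cells, 2 between superficial and intermediate cells and 0 between fibroblasts and myofibroblasts, and 8 pairs of neighbouring classes. Between fibroblasts and myofibroblasts 2 members were called with no filter on low counts, with doublet calls kept and with no integration. Against healthy cells, in fibroblasts, myofibroblasts, macrophages and endothelial cells, 1 test was called for acute injury with no filter, and for chronic injury 1 with DESeq2, 2 with no filter and 2 with no integration. Leaving out 1 library gave 0 to 2 calls between fibroblasts and myofibroblasts, 3 to 4 between basal and intermediate cells, 4 between superficial and intermediate cells, 12 to 14 neighbouring pairs, 0 to 2 chronic calls in the non-urothelial classes and 0 to 1 for the chronic change compared between layers. The 2-call chronic case, without healthy replicate 2, held Ly6a (adjusted p = 0.0382) and Psca (adjusted p = 0.0137) in macrophages. The cause of these differences was not tested. Nothing in the labels pairs same-numbered libraries. Their deviations correlated at 0.234 to 0.45 between healthy and acute libraries in 4 of 4 classes, at −0.35 to −0.237 between acute and chronic ones, and between healthy and chronic ones at −0.499 to −0.392 in the layers and 0.136 in fibroblasts, and the numbers were not taken as pairs. With the number as a replicate block 0 members were called in either injury. With the numbers of the chronic libraries swapped, as a crossed replicate block chosen after seeing the data, 1 chronic test was called (Ly6d in myofibroblasts, adjusted p = 0.0458) and 0 acute tests. Endothelial cells, macrophages and lymphocytes were few, which limits what could be detected in them.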
